A study of Homo sapiens with 8 samples.

Results

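The genes examined were KDM5A, KDM5B and KDM5C, which encode the histone demethylases that KDM5-C70 is made to inhibit, and JARID2, which encodes a relative of these enzymes. They were taken by name, and the members of the data set were the bases of H3K4me3 calls within 5 kb of 1 transcription start site (TSS) for each gene. On GRCh37 these sites were 498621 on chromosome 12 for KDM5A, 202777549 on chromosome 1 for KDM5B, 53254604 on chromosome X for KDM5C and 15246206 on chromosome 6 for JARID2. The windows touched 5 of the 50523 merged regions of the whole series, 2 of them at KDM5B, and all 5 were among the 13729 regions called in all 8 libraries.

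H3K4me3, trimethylation of lysine 4 of histone H3, was mapped by chromatin immunoprecipitation sequencing in MM1S, an established human multiple myeloma cell line. The study had 5 control libraries from cells in vehicle (DMSO), with no time stated, and 3 libraries from cells in KDM5-C70 at 50 uM over 7 days. All 8 share the cell line, the growth conditions and 1 lot of the antibody. The labels do not say whether the libraries of a group came from separate cultures, so p-values measure the spread between these libraries, which may be technical.

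H3K4me3 sits mainly at the promoters of active genes, where it flanks the TSS and often follows CpG-rich sequence. KDM5 enzymes remove methyl groups from this residue through a JmjC domain that uses iron and 2-oxoglutarate. KDM5A was first described as a partner of the retinoblastoma protein, KDM5B is known for its high levels in several tumours, and KDM5C is an X-linked gene mutated in intellectual disability. JARID2 has JmjN and JmjC domains like theirs but lacks demethylase activity, and it is known as an accessory subunit of Polycomb repressive complex 2. The comparison asks whether the mark at the promoters of the inhibitor's own target genes differed between treated and control cells.

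The promoter sequences show the CpG content around the start sites of these genes, with every CpG dinucleotide in capitals. They are RefSeq's on GRCh38.p14, matched by symbol for 4 of 4 genes, and run 5′ to 3′ from 250 bases before to 50 bases after a start site of that table. The calls are on GRCh37 and no position was converted between the builds, so the windows were not placed on the calls. The table gives 1 promoter each for KDM5A (chr12:389271-389570, minus strand), KDM5B (chr1:202808372-202808671, minus strand) and KDM5C (chrX:53225158-53225457, minus strand), and 2 for JARID2 (chr6:15245819-15246118 and chr6:15248605-15248904, plus strand).
KDM5A: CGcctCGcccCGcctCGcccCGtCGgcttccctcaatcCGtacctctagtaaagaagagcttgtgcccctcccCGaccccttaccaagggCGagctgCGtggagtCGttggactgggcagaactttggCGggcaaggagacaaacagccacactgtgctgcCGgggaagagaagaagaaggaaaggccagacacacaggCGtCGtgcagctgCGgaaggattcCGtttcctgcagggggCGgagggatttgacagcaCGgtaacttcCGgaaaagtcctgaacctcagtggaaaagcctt
KDM5B: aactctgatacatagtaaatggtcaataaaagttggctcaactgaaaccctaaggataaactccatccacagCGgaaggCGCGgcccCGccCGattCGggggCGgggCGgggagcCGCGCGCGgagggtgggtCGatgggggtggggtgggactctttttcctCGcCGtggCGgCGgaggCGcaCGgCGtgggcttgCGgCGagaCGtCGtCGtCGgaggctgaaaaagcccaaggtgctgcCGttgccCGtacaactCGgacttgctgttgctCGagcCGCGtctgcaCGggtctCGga
KDM5C: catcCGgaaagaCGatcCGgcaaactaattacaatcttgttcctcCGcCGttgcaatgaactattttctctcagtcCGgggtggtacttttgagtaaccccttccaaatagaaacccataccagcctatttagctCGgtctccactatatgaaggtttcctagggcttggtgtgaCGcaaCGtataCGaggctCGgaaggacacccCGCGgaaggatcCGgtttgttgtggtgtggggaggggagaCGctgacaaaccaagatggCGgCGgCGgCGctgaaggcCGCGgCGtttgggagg
JARID2 start 1: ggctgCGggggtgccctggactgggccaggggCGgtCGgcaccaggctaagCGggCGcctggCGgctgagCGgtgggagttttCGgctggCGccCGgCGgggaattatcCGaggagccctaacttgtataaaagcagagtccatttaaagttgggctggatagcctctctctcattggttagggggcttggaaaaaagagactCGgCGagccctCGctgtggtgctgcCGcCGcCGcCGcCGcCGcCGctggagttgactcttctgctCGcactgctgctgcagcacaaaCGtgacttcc
JARID2 start 2: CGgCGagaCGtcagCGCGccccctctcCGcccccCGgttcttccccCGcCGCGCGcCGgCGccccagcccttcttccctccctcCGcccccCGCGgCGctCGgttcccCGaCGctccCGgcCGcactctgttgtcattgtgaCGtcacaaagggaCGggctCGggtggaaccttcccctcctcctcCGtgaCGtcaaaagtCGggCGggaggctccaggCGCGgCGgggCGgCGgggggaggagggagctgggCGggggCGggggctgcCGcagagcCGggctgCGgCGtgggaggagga
These windows held 20 CpG for KDM5A, 34 for KDM5B, 22 for KDM5C, 24 for the upstream start of JARID2 and 40 for its downstream start. The median of all 35116 promoters of this length was 14, so all 5 lay above it, and the downstream start of JARID2 stood at the 93.3rd percentile. The start sites of JARID2 lay 2786 bases apart on GRCh38.p14. The KDM5A window shared 126 bases with that of CCDC77, a neighbouring gene on the opposite strand, so calls at the KDM5A start cannot be assigned to one gene of this pair. At KDM5B the next gene upstream in the table is PCAT6, a long noncoding RNA gene.

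Short motifs were searched on both strands, overlapping matches included. GGGCGG, the core of Sp1 sites, was found in 4 of the 5 windows, with 6 matches at the downstream start of JARID2, and in 45% of all promoters. The core promoter element TATAAA was found in 1 of the 5 windows, the upstream start of JARID2, and in 11.5% of all promoters. The same window was the only 1 of the 5 with CCAAT, the letters bound by NF-Y, which 34.6% of all promoters held. TGACGTCA, the full cAMP response element, had 2 matches at the downstream start of JARID2 and was present in 1.85% of all promoters. Its letters read the same on both strands. CCGGAAG, an ETS-type core, was found at KDM5A alone among the 5 (10.3% of all promoters). CACGTG, an E-box, had 0 matches in the 5 windows, against 7.26% of all promoters. The motifs were chosen with these sequences in view, and a match is a match of letters.

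The libraries fell into 2 sets by how far their called bases overlapped. No label marks these sets, which were read from the calls alone. DMSO 1, DMSO 2 and KDM5-C70 1 formed the set with shorter lists (15323 to 20998 regions), and DMSO 3, 4 and 5 with KDM5-C70 2 and 3 the set with longer lists (28195 to 37948 regions). The Jaccard index of called bases was 0.56 to 0.734 within sets and 0.309 to 0.543 between them. Each list marks called intervals and, inside them, inner segments. The inner share is the percent of called bases that lie in inner segments. The depth of the libraries is unknown, and a base outside the calls may still carry the mark.

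**Figure D1:**
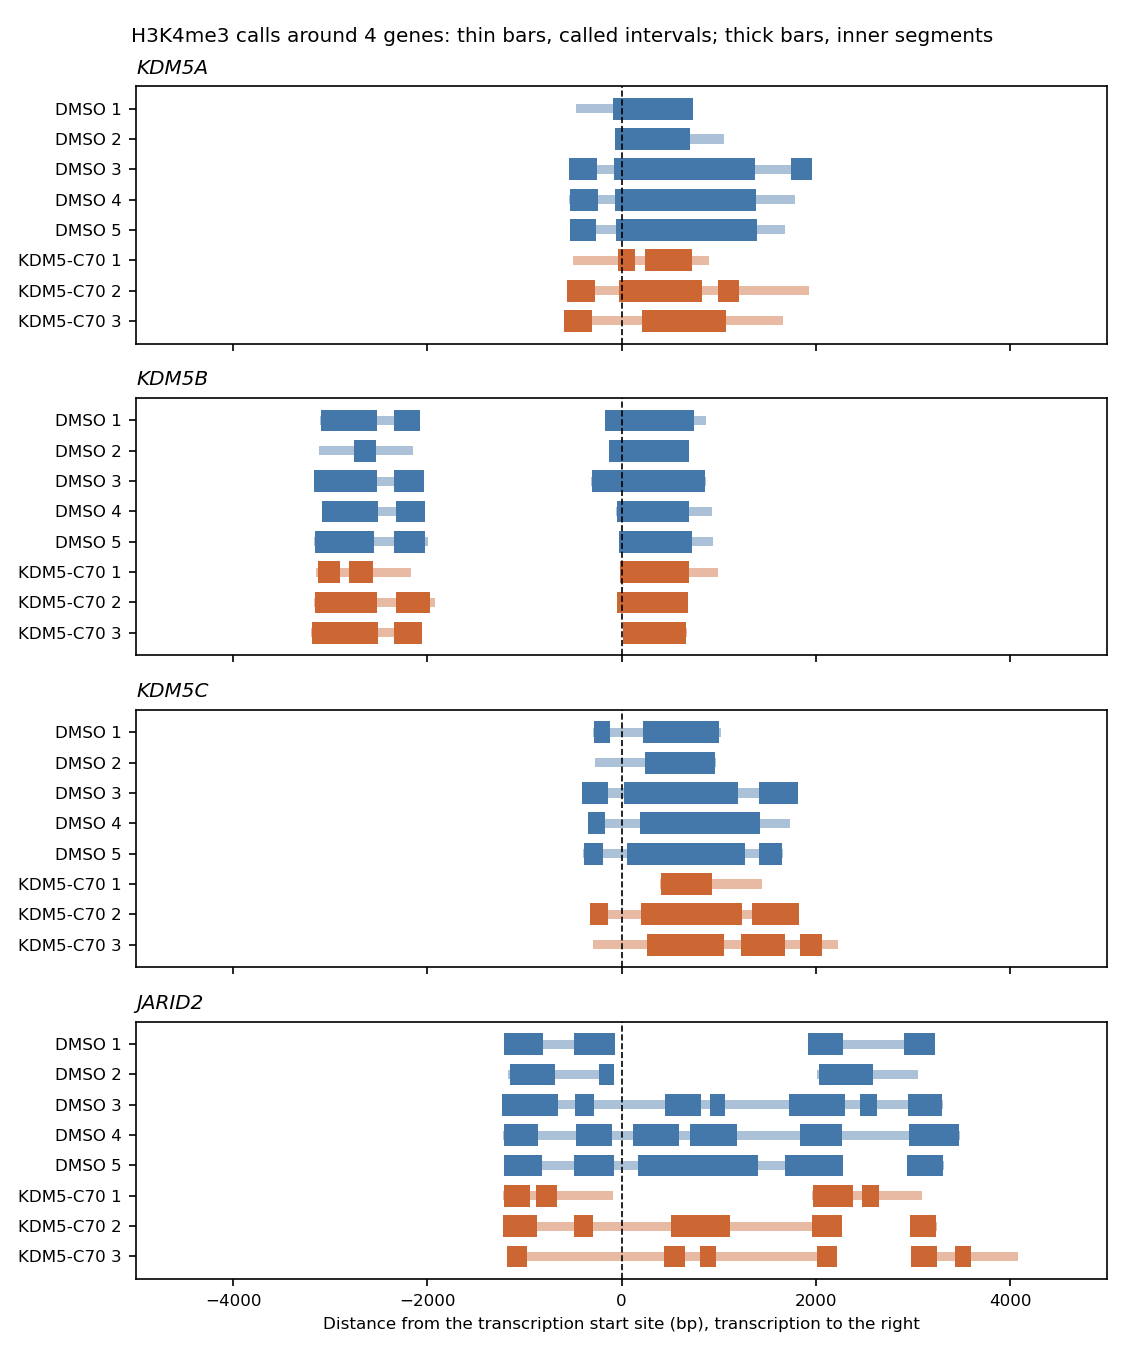
Called intervals (thin bars) and inner segments (thick bars) within 5 kb of the start sites of 4 genes, by library; the x axis is the distance from the start site in bp, with transcription to the right, blue for DMSO and orange for KDM5-C70. KDM5A and KDM5C have 1 interval in each of the 8 libraries, KDM5B has 2, and JARID2 has 1 long interval or 2.

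Each of the 4 windows held a call in all 8 libraries, as the map of called intervals shows. The call held the TSS in 8 libraries at KDM5A, 7 at KDM5B, 7 at KDM5C and 5 at JARID2. JARID2 had the most called bases of the 4 in 8 of 8 libraries. Its mean over the 8 libraries was 3533 ± 1087 bp (SD), followed by KDM5B with 2019 ± 171 bp, KDM5A with 1943 ± 593 bp and KDM5C with 1836 ± 544 bp. The last 3 means lie closer together than the spread of KDM5A or KDM5C. KDM5A, KDM5C and JARID2 had 1.83 to 1.90 times as many called bases in the set with longer lists as in the other set. For KDM5B this ratio was 1.05. The order of KDM5A, KDM5B and KDM5C therefore differed between the sets, with KDM5B above both others in all 3 libraries of the set with shorter lists.

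No gene differed in called bases between the treatments beyond the spread of the libraries. Over the whole table of 13729 regions, limma called 0 regions wider (0.0%) and 0 narrower (0.0%) after adjustment at 0.05. Before adjustment, 131 were wider and 111 narrower at that limit. None of the 5 regions passed either limit, with adjusted p between 0.994 and 0.999 (limma). Groups did not overlap in 0 of the 5 regions, where 0.954% of all tested regions were wider and 0.605% narrower in every KDM5-C70 library. The median log2 change of the 5 regions was 0.05 and that of all regions 0.14.

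**Figure D2:**
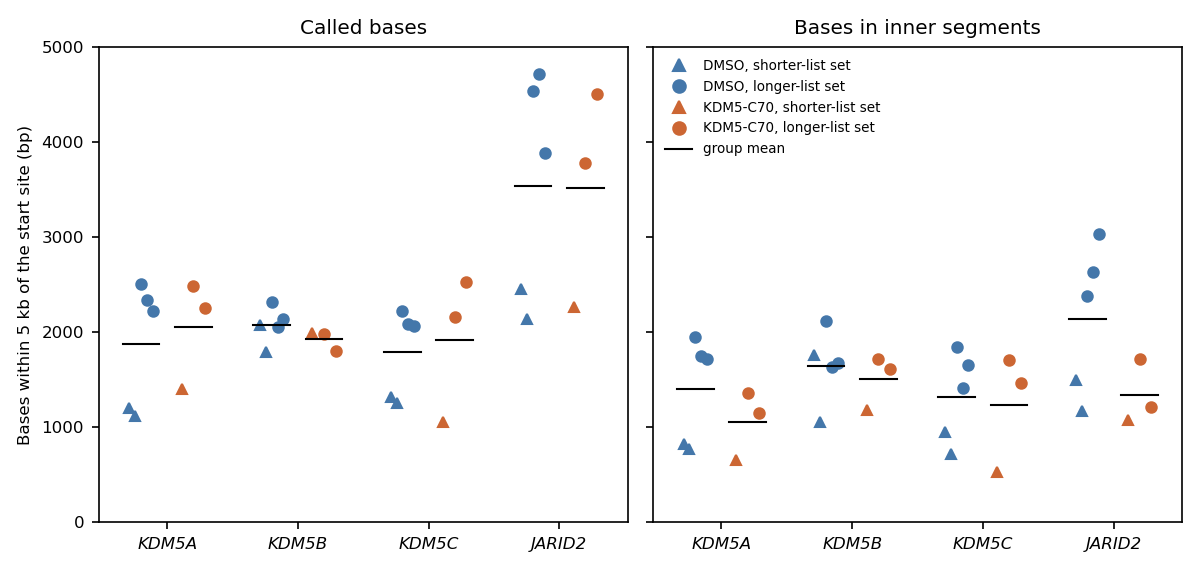
Called bases (left) and bases in inner segments (right) within 5 kb of each start site, in bp, for each library. Blue marks DMSO and orange KDM5-C70, triangles the set with shorter lists and circles the set with longer lists, and bars are group means. Triangles lie below circles for KDM5A, KDM5C and JARID2 in both groups, and the groups overlap in both panels for all 4 genes.

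KDM5A, on the minus strand, carried a single call that held the TSS in 8 of 8 libraries. It had 1207, 1116, 2507, 2334 and 2224 called bp in DMSO 1 to 5 and 1405, 2488 and 2260 bp in KDM5-C70 1 to 3. Low values belong to the set with shorter lists in both groups, and the groups overlap. The 3 KDM5-C70 libraries averaged 2051 ± 571 bp (SD) and the 5 DMSO libraries 1878 ± 662 bp (SD). The difference of 173 bp was smaller than the spread (exact permutation p = 0.571, 2-sided, over 56 splits). The merged region, chr12:496661-499217 on GRCh37, was 2557 bp long, and 803 bp of it were called in all 8 libraries. Most of the call lay inside the gene, with 75.2% of called bases downstream of the TSS on average (range 61.1 to 94.2%).

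The inner segments of KDM5A took a smaller share of the call in every KDM5-C70 library. The inner share was 68.2, 69.4, 77.9, 75.0 and 77.2% in DMSO 1 to 5 and 46.9, 54.7 and 50.8% in KDM5-C70 1 to 3. The groups do not overlap, and the lowest DMSO value stands 13.5 percentage points above the highest KDM5-C70 value. The 3 KDM5-C70 libraries averaged 50.8 ± 3.90% (SD) and the 5 DMSO libraries 73.5 ± 4.47% (SD), so KDM5-C70 minus DMSO was -22.7 percentage points. The exact permutation p was 0.0357, the lowest value that 56 splits can give. Within the set with shorter lists the difference was -21.9 points and within the other set -23.9. Over all 13729 regions the inner share was lower in every KDM5-C70 library in 12.2% of regions and higher in 0.204%, and its median change was -10.8 points, so that a large part of the data moved in this direction.

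KDM5A also stood below the typical region of its own library, by more in the treated cells. Its inner share minus that of the library's median region was -9.69 ± 1.64 points over the 5 DMSO libraries (SD) and -19.7 ± 0.280 points over the 3 KDM5-C70 libraries (SD). The highest KDM5-C70 value was -19.4 points and the lowest DMSO value -12.4. The difference was -9.97 points (exact permutation p = 0.0357), on a measure chosen after the data were examined. How many of all regions fail to overlap on this measure was not counted. The trait was not particular to KDM5A. JARID2 averaged -22.7 points over the 5 DMSO and -30.4 points over the 3 KDM5-C70 libraries, and its groups overlapped. The limma change in inner share at KDM5A lay at the 18.2nd percentile of the 13729 regions. Centring shifts the change of every region alike, so this percentile is the same with and without it. In the limma fit of the inner share over all regions, 55 regions passed as lower (0.401%) and 0 as higher (0.0%), and KDM5A did not pass (limma adjusted p = 0.0987, unadjusted p = 0.00335). That count of 55 fell to 0 without DMSO 1, 3, 4 or 5 and with centring or a variance trend, to 1 without DMSO 2 and to 2 without KDM5-C70 3, and was 107 without KDM5-C70 1. With a term for the 2 sets, which were read from these same calls, KDM5A passed (limma adjusted p = 0.048), as did 2.74% of regions. Over 13 alternatives the limma adjusted p of KDM5A ran from 0.048 to 0.565. With each library centred on its median the change was -9.97 points (limma adjusted p = 0.565, unadjusted p = 0.0867).

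The KDM5A share rests on the following inner bases. Inner segments held 823, 774, 1952, 1750 and 1716 bp in DMSO 1 to 5 and 659, 1361 and 1148 bp in KDM5-C70 1 to 3. The groups overlap because the sets differ, but within each set every KDM5-C70 library is below every DMSO library. The difference was -347 bp (exact permutation p = 0.321), and within sets it was -140 bp and -552 bp. It was -148.5 bp without KDM5-C70 1 and -209.75 bp without DMSO 3. In limma the log2 change of the region was -0.37 (SE 0.38, limma adjusted p = 1.00), and without KDM5-C70 1 it was -0.058. With a set term it was -0.44 (SE 0.11, limma adjusted p = 0.0828), which did not pass, while 1.64% of regions passed as lower.

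Around the KDM5A TSS, all 5 DMSO libraries had 1 inner segment that spanned the TSS, from between -89 and -59 bp to between 709 and 1393 bp, counted in the direction of transcription. In KDM5-C70 2 the segment that spanned the TSS ran from -27 to 830 bp. In KDM5-C70 1 it ran only from -36 to 135 bp, with another from 240 to 726 bp. In KDM5-C70 3 no inner segment held the TSS, and the nearest began at 206 bp. A stretch of 23 bp was inner in all 5 DMSO libraries and in no KDM5-C70 library, and no stretch showed the reverse. At the other 3 genes neither kind of stretch was present. How often such stretches occur over all regions was not counted.

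The outer ends of the KDM5A call did not move with the treatment beyond the spread. The call reached 468, 64, 546, 545 and 535 bp upstream of the TSS in DMSO 1 to 5 and 500, 558 and 596 bp in KDM5-C70 1 to 3 (difference 120 bp, exact permutation p = 0.25). DMSO 2 was the low library, and without it the difference fell to 27.8 bp. Downstream, the call reached 1445 ± 524 bp over the 5 DMSO libraries (SD) and 1499 ± 532 bp over the 3 KDM5-C70 libraries (SD) (exact permutation p = 0.964).

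**Figure D3:**
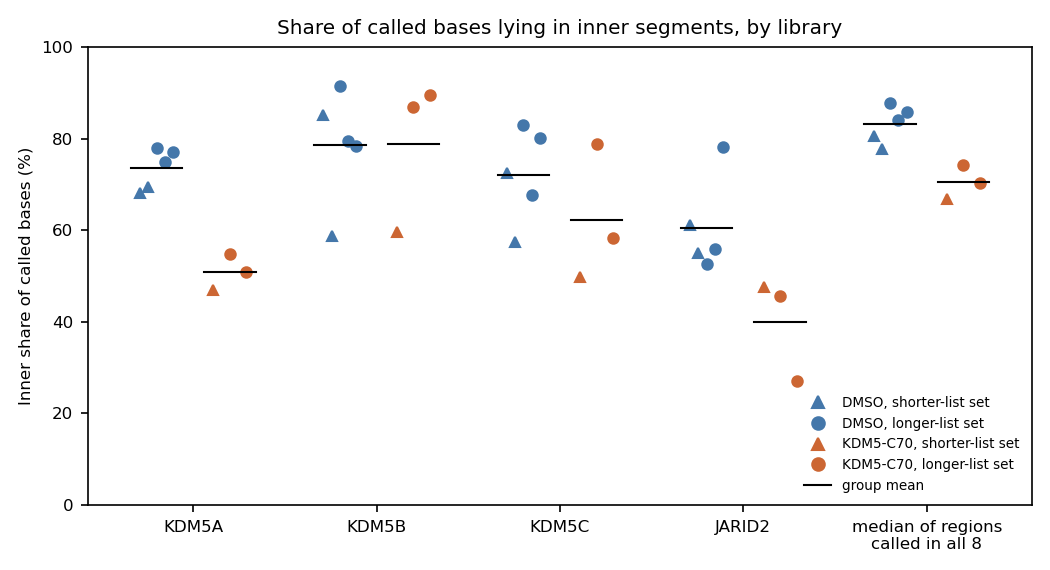
Inner share of called bases in percent for each gene and library, with the median of the regions called in all 8 libraries at the right. Blue marks DMSO and orange KDM5-C70, triangles the set with shorter lists and circles the set with longer lists, and bars are group means. KDM5A (46.9 to 54.7% against 68.2 to 77.9%) and JARID2 (27.0 to 47.5% against 52.6 to 78.1%) do not overlap between groups, while KDM5B and KDM5C do.

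JARID2, on the plus strand, was among the merged regions with the most called bases. Its merged region, chr6:15244978-15250293, ranked 4 of 13729 by mean called width, with all intervals inside it summed. By that sum it stood at or above the 98.5th percentile in every library. In DMSO 1, DMSO 2 and KDM5-C70 1 the sum joins separate intervals. Singly these stood between the 69.6th and the 80.6th width percentile of their lists. The sum also joins 2 intervals in DMSO 5, KDM5-C70 2 and KDM5-C70 3. There the longer interval alone stood between the 99.8th and the 99.9th width percentile. Called bases were 2450, 2137, 4536, 4711 and 3881 bp in DMSO 1 to 5 and 2261, 3778 and 4508 bp in KDM5-C70 1 to 3. High values again belong to the set with longer lists, and the groups overlap. The averages, 3516 ± 1146 bp over the 3 KDM5-C70 libraries (SD) and 3543 ± 1187 bp over the 5 DMSO libraries (SD), differed by only -27.3 bp (exact permutation p = 0.821).

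The form of the JARID2 call followed the sets of libraries, each of which holds libraries of both treatments. In DMSO 1, DMSO 2 and KDM5-C70 1 it was split into an upstream interval that ended between -89 and -72 bp and a downstream interval that began between 1920 and 2017 bp, and the TSS of the rule lay in the gap. In the other 5 libraries 1 interval held the TSS, and its downstream end lay between 2214 and 3486 bp. DMSO 5, KDM5-C70 2 and KDM5-C70 3 had a further interval beyond it. The upstream end was nearly fixed, between -1228 and -1173 bp in all 8 libraries. Where the call held the TSS, it reached 3307, 3486 and 2282 bp downstream in DMSO 3 to 5 and 2273 and 2214 bp in KDM5-C70 2 and 3. These groups meet within 9 bp but do not overlap (difference -781.5 bp, exact permutation p = 0.2, the lowest that 10 splits can give). With intervals within 1 kb joined, which adds the further intervals, the direction turned and the difference was 296.7 bp (exact permutation p = 0.8).

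The inner share of JARID2 was lower in every KDM5-C70 library. It was 61.2, 54.9, 52.6, 55.8 and 78.1% in DMSO 1 to 5 and 47.5, 45.6 and 27.0% in KDM5-C70 1 to 3. The groups do not overlap, with 5.1 points between them. The same held for 12.2% of all regions, whose median change was -10.8 points, and for the median region of the libraries. The 3 KDM5-C70 libraries averaged 40.0 ± 11.3% (SD) and the 5 DMSO libraries 60.5 ± 10.3% (SD). KDM5-C70 minus DMSO was -20.5 points (exact permutation p = 0.0357, again the lowest possible), with -10.6 points within the set with shorter lists and -25.9 within the other. In the limma fit over all regions JARID2 did not pass (limma adjusted p = 0.212, unadjusted p = 0.0323). Relative to the median region of each library the groups overlapped, and the difference was -7.77 points (exact permutation p = 0.393).

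Inner segments of JARID2 held 1499, 1174, 2386, 2630 and 3030 bp in DMSO 1 to 5 and 1074, 1722 and 1216 bp in KDM5-C70 1 to 3. Within each set every KDM5-C70 library lies below every DMSO library, and across sets the groups overlap. The difference was -806 bp (exact permutation p = 0.214), with -262.5 bp and -1213 bp within sets. With a set term the log2 change was -0.68 (SE 0.17, limma adjusted p = 0.0734), which did not pass. The segments were many and short, at 3 to 7 per library, and none of them held the TSS in any of the 8 libraries. In KDM5-C70 3 only 208 bp upstream of the TSS were inner, against 544 bp in KDM5-C70 2 and 727 to 815 bp in the 3 DMSO libraries of the same set.

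KDM5B, on the minus strand, had 2 separate calls in 8 of 8 libraries, 1 at the TSS (chr1:202776560-202777860) and 1 upstream of it (chr1:202779476-202780746), which lay between -3197 and -1927 bp. Together they covered 2073, 1797, 2313, 2058 and 2141 bp in DMSO 1 to 5 and 1990, 1980 and 1803 bp in KDM5-C70 1 to 3. The KDM5-C70 values lie in the lower part of the DMSO range and overlap it. The difference was -152 bp (exact permutation p = 0.25), and its sign differed between the sets, at 55 bp in the set with shorter lists and -279 bp in the other. In lists cut to their 15323 widest regions the difference was -618 bp (exact permutation p = 0.0714). That cut removes narrow calls, so it acts on the width being compared. At a -log10 q-value of at least 5 the difference was -1050 bp (exact permutation p = 0.143). In both cuts, a library that lost a call counts it as 0 bp. The q-value limit keeps a smaller part of each KDM5-C70 list than of any DMSO list, so zeros fall more often on the treated group. The calls were the least variable of the 4 genes, with 61.6% of the bases called in any library being called in all 8. These values count both calls, and the upstream one was not placed relative to PCAT6, so it cannot be assigned to KDM5B alone.

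The KDM5B call at the TSS ranked 10596 of 13729 by mean width and was narrowest in KDM5-C70 2 and 3. Its width was 1046, 829, 1180, 988 and 972 bp in DMSO 1 to 5 and 1007, 737 and 661 bp in KDM5-C70 1 to 3. KDM5-C70 2 and 3 are below all DMSO libraries and KDM5-C70 1 is not. The 3 KDM5-C70 libraries averaged 802 ± 182 bp (SD) and the 5 DMSO libraries 1003 ± 127 bp (SD) (exact permutation p = 0.143), and the log2 change was -0.34 (SE 0.24, limma adjusted p = 0.994). Inner bases at this call were 910, 825, 1168, 746 and 749 bp in DMSO 1 to 5 and 712, 735 and 653 bp in KDM5-C70 1 to 3. Every KDM5-C70 value is lower, by as little as 11 bp (difference -180 bp, exact permutation p = 0.0357, calls taken singly after the data were examined). KDM5B was 1 of the 5 regions with fewer inner bases in every KDM5-C70 library, and 0 had more, beside 2.08% and 0.0234% of the 12816 regions tested. It did not pass in limma (limma adjusted p = 1.00).

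At its upstream side the KDM5B call ended close to the TSS. It reached 176, 133, 311, 53 and 29 bp upstream in DMSO 1 to 5 and 17 and 51 bp in KDM5-C70 1 and 2, while in KDM5-C70 3 it ended 13 bp inside the gene and did not hold the TSS. The position of this end, -140 ± 112 bp over the 5 DMSO libraries (SD) and -18.3 ± 32.0 bp over the 3 KDM5-C70 libraries (SD), overlapped between groups (exact permutation p = 0.0714).

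The call upstream of KDM5B was similar in all libraries, with widths of 968 to 1169 bp in DMSO and 983 to 1243 bp in KDM5-C70 libraries (difference 49.3 bp, exact permutation p = 0.536). It held 2 inner segments in 7 of 8 libraries and 1 in DMSO 2, where the inner bases were fewest at 231 bp. The inner share of KDM5B over both calls was 85.0, 58.8, 91.5, 79.4 and 78.3% in DMSO 1 to 5 and 59.6, 87.0 and 89.6% in KDM5-C70 1 to 3. These values overlap throughout, with a difference of 0.145 points (exact permutation p = 0.893), in a data set whose median region changed by -10.8 points. Relative to the median region of each library the difference was 12.9 points (exact permutation p = 0.179).

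KDM5C, on the minus strand of chromosome X, carried 1 call per library (chrX:53252371-53255013), most of it inside the gene. Called bases were 1318, 1253, 2227, 2085 and 2062 bp in DMSO 1 to 5 and 1055, 2164 and 2526 bp in KDM5-C70 1 to 3. The KDM5-C70 libraries hold both the lowest and the highest value. The averages were 1915 ± 766 bp over the 3 KDM5-C70 libraries (SD) and 1789 ± 465 bp over the 5 DMSO libraries (SD), which differed by 126 bp (exact permutation p = 0.714). On average 84.3% of called bases lay downstream of the TSS. KDM5-C70 1 was the only library whose call missed the TSS, beginning at 397 bp inside the gene.

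The KDM5C call could be followed into the gene from the TSS in 7 of 8 libraries. The downstream reach was 1025, 973, 1817, 1739 and 1666 bp in DMSO 1 to 5 and 1832 and 2233 bp in KDM5-C70 2 and 3. These values do not overlap, but KDM5-C70 2 lies only 15 bp above DMSO 3 of the same set, and 2 of the 5 DMSO libraries belong to the set with shorter calls (difference 589 bp, exact permutation p = 0.0952, the lowest that 21 splits can give). With the end of the call in KDM5-C70 1, at 1451 bp, included, the groups overlapped (difference 395 bp, exact permutation p = 0.25).

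No inner segment held the KDM5C TSS in any of the 8 libraries. The main segment began between 23 and 243 bp inside the gene in DMSO libraries and at 404, 203 and 266 bp in KDM5-C70 1 to 3. A second segment, upstream of the TSS, was present in 4 of 5 DMSO libraries and in 1 of 3 KDM5-C70 libraries. Inner bases were 954, 719, 1848, 1413 and 1651 bp in DMSO 1 to 5 and 526, 1707 and 1471 bp in KDM5-C70 1 to 3 (difference -82.3 bp, exact permutation p = 0.786). The inner share was 72.4, 57.4, 83.0, 67.8 and 80.1% in DMSO 1 to 5 and 49.9, 78.9 and 58.2% in KDM5-C70 1 to 3. The groups overlap, and KDM5-C70 minus DMSO was -9.79 points (exact permutation p = 0.286). Relative to the median region of each library its sign turned, to 2.94 points.

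**Figure D4:**
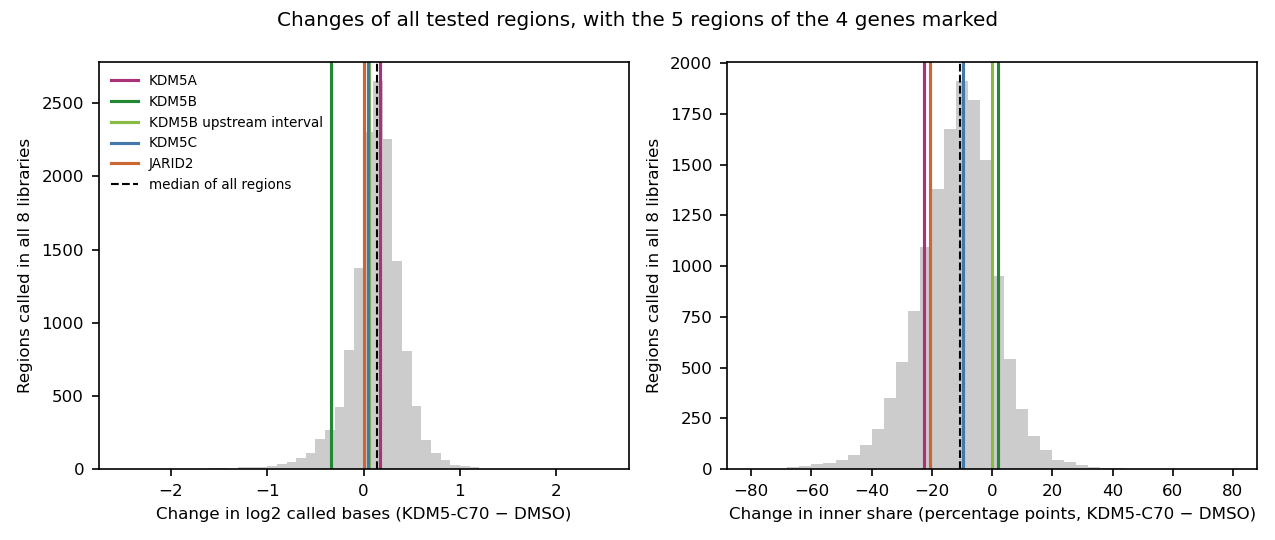
Change per region between KDM5-C70 and DMSO for the 13729 regions called in all 8 libraries (grey), in log2 called bases (left) and in percentage points of inner share (right); values beyond the axis limits are counted in the last bins. Coloured lines mark the 5 regions of the 4 genes and the dashed line the median of all regions. In inner share KDM5A (-22.7) and JARID2 (-20.5) lie below the median of -10.8, KDM5C (-9.79) lies near it, and both KDM5B regions lie above it.

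Set against all regions, the 5 regions stood on both sides of the median change in inner share. Of the 5, 2 had a lower inner share in every KDM5-C70 library, KDM5A and JARID2, and 0 had a higher one, beside the 12.2% and 0.204% of all regions. Their median change was -9.79 points against -10.8 for all regions. KDM5A lay at the 18.2nd and JARID2 at the 22.7th percentile of the changes, KDM5C at the 53.8th, and the KDM5B regions at the 88.6th (TSS) and 84.4th (upstream). In called bases, the KDM5B TSS region lay at the 5.02nd percentile of log2 change and the other 4 between the 25.4th and the 55.1st. In inner bases JARID2 lay at the 6.57th percentile with a log2 change of -0.62 (SE 0.31, limma adjusted p = 1.00, unadjusted p = 0.0672), and the limma fit called 0 regions with more and 0 with fewer inner bases (0.0% each), with 0 and 465 at an unadjusted p under 0.05.

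**Figure D5:**
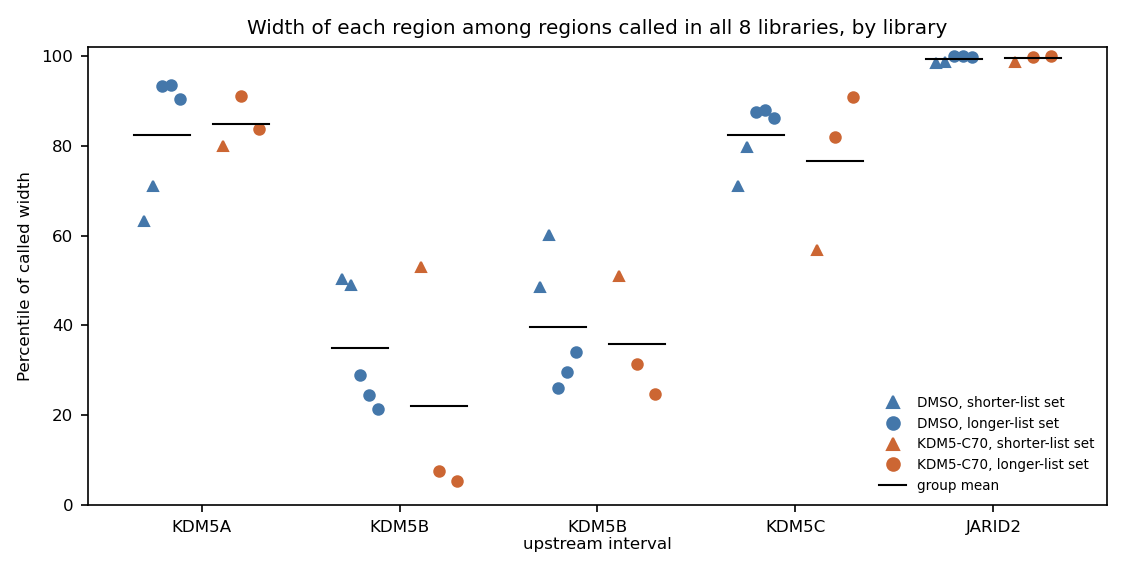
Percentile of called width of each of the 5 regions among the regions called in all 8 libraries, by library. Blue marks DMSO and orange KDM5-C70, triangles the set with shorter lists and circles the set with longer lists, and bars are group means. JARID2, with its intervals summed, stays at or above the 98.5th percentile. The KDM5B TSS region falls to the 5.32nd and 7.66th percentile in KDM5-C70 3 and 2.

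Widths were also ranked within each library, and the plot of percentiles shows that the ranks of all 5 regions still split by set. KDM5A ranged from the 63.3rd to the 93.5th percentile and KDM5C from the 56.8th to the 90.9th, with the low ends in the set with shorter lists. The KDM5B TSS region moved the other way, from the 49.1st to the 53.0th percentile in that set to the 21.4th to the 29.0th in DMSO 3, 4 and 5 and to the 7.66th and 5.32nd in KDM5-C70 2 and 3. The upstream KDM5B region ranged from the 24.8th to the 60.2nd percentile.

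The caller's own values for these calls, the authors' fold enrichment and -log10 q-value, rank the calls within each list only. The KDM5A call had a -log10 q-value of 32.2, 25.5 and 11.9 in DMSO 1, DMSO 2 and KDM5-C70 1, at or above the 98.8th percentile of those lists. In the other 5 lists it stood between the 25.1st and the 50.6th percentile, with values of 1.64 to 4.65. KDM5C stood between the 12.8th and the 43.8th percentile of its lists. JARID2, 1 of the widest calls, had fold enrichments of only 2.07 to 2.11 for its long interval in DMSO 3, 4 and 5, between the 18.4th and the 21.5th percentile of those lists. In KDM5-C70 2 and 3 its fold enrichment was 2.60 and 2.54, at the 57.7th and the 59.1st percentile.

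Only some of these calls reached a -log10 q-value of 5. That limit left 6394 to 19917 regions in the DMSO lists, which held 15323 to 32376 in full. It left 3028 to 7036 in the KDM5-C70 lists, which held 17977 to 37948. KDM5A kept its call in DMSO 1, DMSO 2 and KDM5-C70 1 and in no other library. KDM5C kept no call in any of the 8 libraries. KDM5B kept both of its calls in DMSO 1 and 4, 1 of them in DMSO 3, DMSO 5 and KDM5-C70 2, and neither in the other 3 libraries. JARID2 kept all of its called bases in DMSO 3 and 5 and part of them in DMSO 1 and KDM5-C70 2. The limit removes calls from both groups, though a larger part of the KDM5-C70 lists. A call removed by it is still a call of its list.

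The share of called bases that every library held in common differed between the genes. At KDM5C 577 of 2643 bp (21.8%) were called in all 8 libraries, at JARID2 1361 of 5316 bp (25.6%) and at KDM5A 803 of 2557 bp (31.4%). KDM5B, at 1584 of 2572 bp (61.6%), had the highest of these shares. For inner segments the bases common to all 8 libraries came to 470 bp at KDM5A, 857 bp at KDM5B, 526 bp at KDM5C and 356 bp at JARID2. At JARID2 that was 9.01% of the 3952 bp that were inner in any library. No called base at the 4 genes belonged to every library of one treatment and to none of the other, in either direction.

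For each region, the region on another chromosome with the most similar called widths over the 8 libraries was found by the root mean square difference of log2 called bases. For KDM5A it was chr1:36105983-36108342 (0.086), for KDM5C chr4:120132621-120135529 (0.069) and for JARID2 chr22:41840032-41844384 (0.162). The KDM5B TSS region was nearest to chrX:153714065-153715327 (0.146) and the upstream one to chr19:54641454-54642642 (0.053). The lists name no genes, so these regions are given by position on GRCh37.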

How the data were processed

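The data were 8 lists of called H3K4me3 regions, 1 per library. Trim Galore 0.40, Bowtie 1.1.2, MACS2 2.1.0, HOMER 4.8 and GRCh37 are named in the submitters' processing notes, without settings. The lists hold, as deposited, positions and blocks, the caller's score for display, its fold enrichment and its p-value and q-value as -log10. No read counts were used, so depth and counting error are unknown.

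Called and inner bases (blocks over 1 bp) within 5 kb of each TSS were summed on chromosomes 1 to 22 and X. Regions elsewhere (23 to 41 per list) were left out. Calls overlapping by at least 1 bp formed merged regions. Single values were compared with 2-sided exact permutation tests (smaller tail doubled), and regions with limma 3.58.1 in R 4.3.3, with a variance trend for log2 bases and none for the inner share, and Benjamini-Hochberg adjustment over all regions at 0.05. The other steps ran in Python 3.11.15 with scipy 1.17.1. Both steps were tested on simulated data. For limma these were log2 called widths drawn independently for each library, without the sets of libraries, and the inner share was not simulated.

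The genes, measures and lists were chosen with earlier results of these data known. All 4 genes were to be named whatever their values, with 1 most similar region for each of their regions. Other demethylase and Polycomb genes were not located on GRCh37 and were not analysed here.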

Additional observations from a re-analysis of the deposited data

Results flagged for a closer look

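Of 18 sets of DMSO values searched for a library far from the others, 1 was marked, where chance marks about 5%. In DMSO 2 the KDM5A call reached 64 bp upstream of the TSS, and in the other 4 DMSO libraries 468 to 546 bp.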

How the results depend on the processing

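The drop in inner share at KDM5A and JARID2 kept its sign under every setting run, but not its p. With 1 library left out, the difference at KDM5A lay between -24.7 and -20.8 points and that at JARID2 between -24.2 and -14.0. With so few libraries no exact p under 0.05 is possible. It was -21.9 and -19.1 points with calls of a -log10 q-value of at least 5, which leave few libraries a call, and -7.77 points at JARID2 and 2.94 at KDM5C minus the library median.

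Correlations of called widths did not settle whether the replicate numbers of the labels pair the libraries. They were 0.186, -0.255 and 0.378 for same-numbered libraries and -0.508 to 0.372 for the others, so the 2 kinds overlapped. With the replicate number as a block, the inner share differed by -21.0 points at KDM5A and -16.2 at JARID2, called bases of JARID2 by 474.7 bp, inner bases of KDM5A by -127 bp and of KDM5C by 61 bp, and the downstream reach of KDM5B by 55 bp. In limma the block gave 2 wider and 10 narrower regions, 0 with a lower share, 0.020 for log2 inner bases of KDM5C and -5.43 points for the share at the KDM5B TSS.

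Several signs turned. Called bases of JARID2 differed by 129.5 bp in a window of 2 kb. Its downstream reach differed by 296.7 bp with intervals within 1 kb joined, against -781.5 bp as deposited. In lists cut to equal length by keeping the widest regions, the share of KDM5B differed by -4.14 points. There KDM5B differed by -618 called and -604 inner bp, and by -1050 and -854 bp at the stricter q-value. That q-value limit keeps a smaller part of each KDM5-C70 list than of any DMSO list. Taken singly, the upstream KDM5B call differed by 49.3 called and 38.7 inner bp, and the TSS call by -180 inner bp. Leaving out 1 library moved called bases from -45.1 to 496.4 bp (KDM5A), -179.5 to 556 bp (KDM5C) and -523.5 to 600 bp (JARID2), and inner bases from -504 to -148.5 bp (KDM5A), -289 to 19.8 bp (KDM5B) and -318.5 to 272 bp (KDM5C). It moved the share of KDM5B from -5.29 to 9.70 points, the downstream reach from -161.5 to 351 bp (KDM5A) and -177 to 127 bp (KDM5B), and the upstream reach of JARID2 from -36.7 to 3.33 bp.

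In limma, centring turned log2 called bases to -0.15 (JARID2), -0.10 (upstream KDM5B) and -0.11 (KDM5C), and the share of KDM5C to 2.94 points. A set term gave -0.057 (JARID2), -0.012 (KDM5C) and -1.93 points for the share of upstream KDM5B. Both together gave -0.17 (JARID2), -0.0097 (KDM5A), -0.068 (upstream KDM5B), -0.13 (KDM5C) and 2.40 points (KDM5C). Leaving out 1 library gave log2 called bases of -0.21 to 0.29 (JARID2), -0.20 to 0.43 (KDM5C) and -0.015 to 0.15 (upstream KDM5B), and log2 inner bases of -0.50 to 0.35 (KDM5C) and -0.24 to 0.50 (upstream KDM5B). The share lay between -2.87 and 11.6 points (KDM5B TSS) and -11.6 and 11.3 points (upstream KDM5B).

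The number of regions called moved with the model. With a lower share it was 376 with a set term and 0 with centring, with both, with a variance trend or at the stricter q-value, and 0 without DMSO 1, 3, 4 or 5, 1 without DMSO 2, 107 without KDM5-C70 1, 79 without KDM5-C70 2 (and 1 higher) and 2 without KDM5-C70 3. With fewer inner bases it was 22 with centring, 210 with a set term, 194 with both (and 17 with more), 1 at the stricter q-value and 0 to 1 without 1 library. In called bases, both together gave 5 wider and 22 narrower, and the stricter q-value, with only 10 regions left, 1 narrower. The causes were not tested. Depth is unknown and limits every absent call.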
